A study of Arabidopsis thaliana with 34 samples.

Results

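The trehalose phosphate synthase family of Arabidopsis was followed here through 8 of its genes: TPS1 (AT1G78580) and the class II genes TPS5 (AT4G17770), TPS6 (AT1G68020), TPS7 (AT1G06410), TPS8 (AT1G70290), TPS9 (AT1G23870), TPS10 (AT1G60140) and TPS11 (AT2G18700). They were found by locus through the probe annotation of the array, and each of the 8 has 1 probe row among the 24537 genes with a named probe. Whether a probe also binds RNA of another family member was not tested.

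Trehalose phosphate synthase joins UDP-glucose and glucose 6-phosphate to trehalose 6-phosphate, a phosphatase turns this into trehalose, and trehalase splits trehalose into glucose. Trehalose 6-phosphate follows the sucrose level of plant cells and restrains SnRK1, the protein kinase that adapts growth and metabolism to low energy. TPS1 is the member with proven synthase activity, while the class II proteins carry synthase-like and phosphatase-like domains and are thought to act in regulation. In work on sugar supply, TPS8 to TPS11 transcripts are known as sugar-repressed and starvation-induced, and TPS5 as sugar-induced.

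RNA came from shoots of 16-day-old Landsberg plants of 3 lines. Line C13 expresses the haemoglobin of the bacterium Vitreoscilla (VHb) in the cytoplasm, line Mt62 expresses it in mitochondria, and the third is wild type (WT); each transgenic line is 1 line, labelled as cytoplasmic line 1:3 and mitochondrial line 6:2, with the promoter not given in the labels or the design text. Each line was kept in 4% oxygen (hypoxia, in sealed bags with an oxygen-consuming sachet) for 2 or 24 h, given 500 µM of the nitric oxide donor DETA for 2 or 24 h, or left untreated as a control at 0, 2 or 24 h. All plants grew on medium with 1% sucrose in days of 10 h light and 14 h dark, and could photosynthesize while treated. Of the 21 groups, 18 had 4 array channels and 3 groups (C13 hypoxia 2 h, WT DETA 2 h and the Mt62 control at 0 h) had 3. The design text calls the replicates biological and says no more on separate cultures.

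The authors' deposited table gives no level per sample but a log fold change (taken as log2) for each of 34 comparisons between 2 groups. A value is listed where the authors' empirical Bayes test gave p of at most 0.01, before any adjustment, and "rose" and "fell" are used below for listed values. A value that is not listed may be anything smaller than a limit, which was computed for each gene from its smallest listed value. The same reasoning puts an upper bound on the standard error when groups of 4 channels are compared, which is 0.17 for TPS7 and TPS10, 0.24 for TPS5, 0.26 for TPS1, 0.30 for TPS9, 0.40 for TPS8, 0.42 for TPS11 and 0.43 for TPS6. TPS6, TPS8 and TPS11 are thus the least precise members, with a limit for unlisted values near 1, against about 0.45 for TPS7 and TPS10. Spread between replicates cannot be shown more directly, because no value per channel is in the table. Tissue markers cannot be checked as levels either. Of 9 measured root marker genes, 3 were lower in C13, 3 in Mt62 and 4 in WT after 24 h of hypoxia by the 0 h control. PYK10, SCR and SHR were lower in each line, and 18%, 16.1% and 17.9% of all genes were. By the control of the same time 1, 2 and 2 markers were lower, where 17.1%, 15.8% and 17% of all genes were. AKT1 was the 1 marker higher at 24 h, in C13 and WT. By the 0 h control 19% and 19.2% of all genes were higher there. At 2 h of hypoxia at most 1 of the 9 was lower by either control, where 9.43% to 11.2% of all genes were. Their part in the hypoxia results was not tested. In whole shoots, fewer cells of a type and less RNA per cell cannot be told apart.

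Over all 34 comparisons the 8 genes had 272 values, of which 107 were listed, 91 lower and 16 higher. Over the same 34 comparisons, the 34558 rows of all genes had 137440 listed values. A treated group is counted against both the 0 h control and the control of the same time, so the listed values are not separate observations. TPS10 was listed most often, in 21 comparisons, and TPS1 least often, in 4. TPS6, TPS8, TPS9 and TPS11 were never higher in a listed comparison. TPS5 had 9 higher and 4 lower values, TPS10 had 5 higher and 16 lower, and TPS7 had 2 higher and 12 lower.

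**Figure D1:**
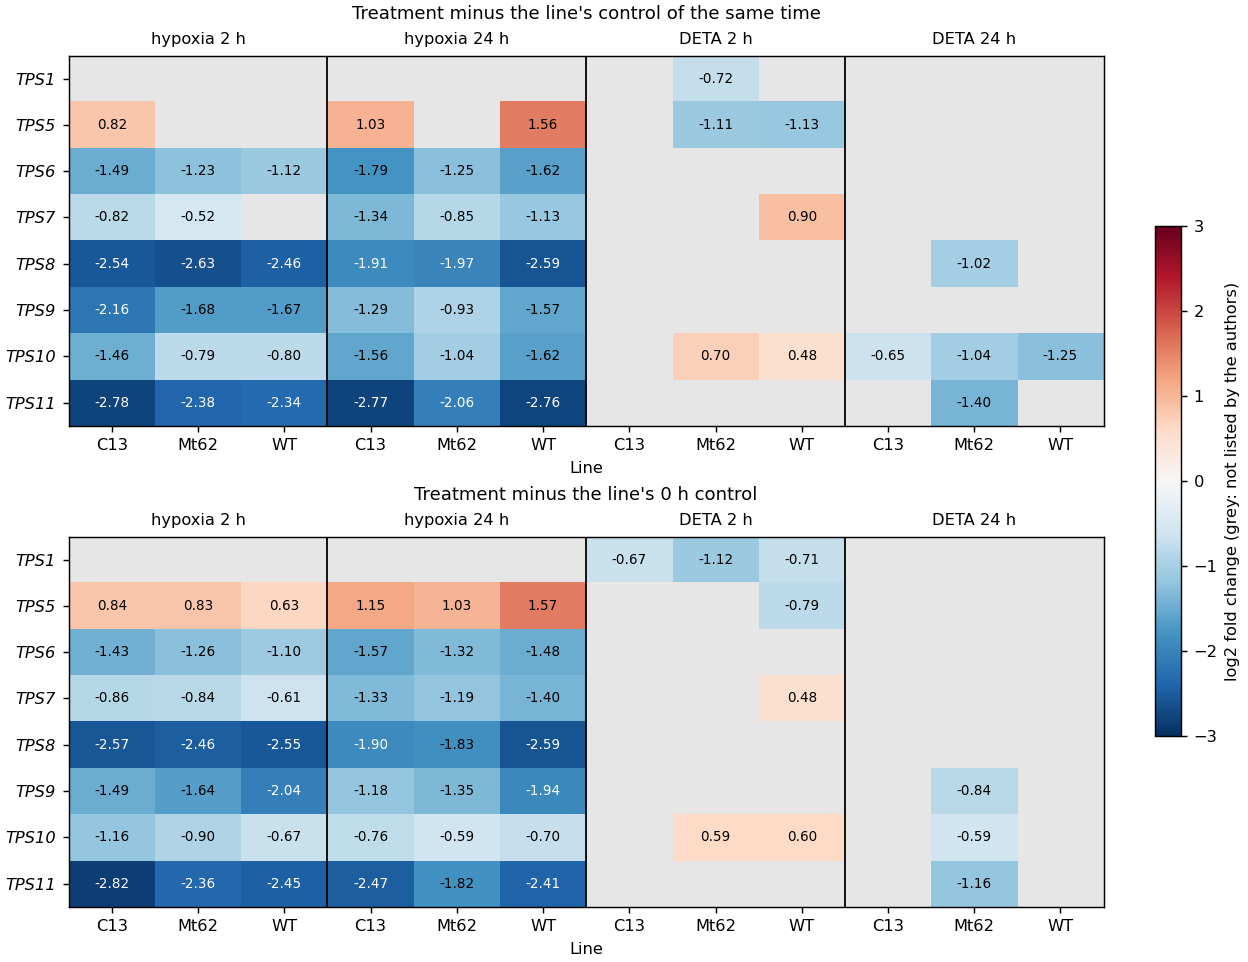
Log2 fold change of each of the 8 genes (vertical axis) in C13, Mt62 and WT (horizontal axis) under hypoxia and DETA, against the line's control of the same time (top) and its 0 h control (bottom); blue is lower and red higher in treated plants, and grey cells are not listed by the authors. The blue block of TPS6 to TPS11 under hypoxia is broken against the control of the same time by WT TPS7 at 2 h alone, and TPS5 is the red exception.

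Most of the class II genes were lower within 2 h of hypoxia. Against the untreated control of the same time, TPS8 and TPS11 fell the furthest, TPS9 and TPS6 followed, and TPS10 fell the least of the 5 genes that were lower in all 3 lines. TPS7 fell in both transgenic lines, TPS5 rose in C13, and TPS1 was not listed in any line.

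TPS8 had -2.54 in C13, -2.63 in Mt62 and -2.46 in WT on the log2 scale in the authors' deposited table. The mean of these is a 5.83-fold lower transcript level (log2 -2.54, standard error at most 0.23). TPS11 had -2.78 in C13, -2.38 in Mt62 and -2.34 in WT, with a mean of -2.50 (at most 0.25), or 5.66-fold lower. For both genes the 3 lines lay within 2 upper bounds of the standard error of a single comparison, which does not show that the lines were alike. TPS9 had -2.16 in C13, -1.68 in Mt62 and -1.67 in WT, a mean of -1.84 (at most 0.18). TPS6 had -1.49 in C13, -1.23 in Mt62 and -1.12 in WT, a mean of -1.28 (at most 0.25). TPS10 had -1.46 in C13, -0.79 in Mt62 and -0.80 in WT, a mean of -1.01 (at most 0.10), with the greatest fall in C13. TPS7 had -0.82 in C13 and -0.52 in Mt62, and in WT its unlisted value could be recovered from other columns as -0.19. TPS5 had 0.82 in C13 and a recovered, unlisted value of 0.29 in WT, and in Mt62 its size was below 0.63.

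These values make 6 of 8 genes lower in C13, 6 in Mt62 and 5 in WT, where 10.4%, 10% and 9.92% of all 24537 genes were lower. One gene was higher in C13 and 0 in Mt62 and WT, where 9.68%, 9.37% and 8.23% of all genes were higher. The median of the listed members was -1.49 in C13, -1.45 in Mt62 and -1.67 in WT, against -0.35, -0.34 and -0.39 over all listed genes of each line. Of all genes, 1496 (6.1%) were lower in all 3 lines. Ordered by their mean fall, TPS8 held place 17 and TPS11 place 21 among these 1496 genes, TPS9 place 99, TPS6 place 320 and TPS10 place 531.

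After 24 h of hypoxia all 6 genes from TPS6 to TPS11 were lower in all 3 lines. TPS11 and TPS8 again had the lowest values. TPS7 and TPS10, the mildest at 2 h, were more than 2-fold lower on average, which TPS10 already was at 2 h (2.02-fold). By the 0 h control the mean fall of TPS10 was smaller at 24 h (-0.68) than at 2 h (-0.91). TPS5 was higher in C13 and WT. TPS1, the catalytic synthase, was again not listed in any line, so that its change stayed below 0.66 in size.

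TPS11 had -2.77 in C13, -2.06 in Mt62 and -2.76 in WT, a mean of -2.53 (standard error at most 0.24). TPS8 had -1.91 in C13, -1.97 in Mt62 and -2.59 in WT, a mean of -2.16 (at most 0.23). TPS6 had -1.79 in C13, -1.25 in Mt62 and -1.62 in WT, a mean of -1.55 (at most 0.25). For all 3 of these genes the difference between the highest and the lowest line stayed under 2 upper bounds of the standard error of a single comparison. The true standard error may be smaller, so this does not show that the lines were alike. TPS10 had -1.56 in C13, -1.04 in Mt62 and -1.62 in WT, a mean of -1.41 (at most 0.10). TPS9 had -1.29 in C13, -0.93 in Mt62 and -1.57 in WT, a mean of -1.26 (at most 0.17). TPS7 had -1.34 in C13, -0.85 in Mt62 and -1.13 in WT, a mean of -1.11 (at most 0.10). Mt62 had the smallest fall for each of these genes except TPS8, whose smallest fall was in C13. TPS5 rose by 1.03 in C13 and 1.56 in WT, and in Mt62 it was not listed, with a size below 0.63.

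Thus 6 of 8 genes were lower in C13, Mt62 and WT alike, where 17.1%, 15.8% and 17% of all genes were lower. One gene was higher in C13, 0 in Mt62 and 1 in WT, where 17.5%, 15.1% and 18.8% of all genes were higher. Among the 2687 genes (11%) lower in all 3 lines, TPS11 held place 17, TPS8 place 83, TPS6 place 417, TPS10 place 576, TPS9 place 787 and TPS7 place 1049. The median of the listed members was -1.56 in C13, -1.15 in Mt62 and -1.62 in WT, against 0.31, -0.36 and 0.37 over all listed genes of each line.

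The order of the genes was only partly resolved. At 2 h, TPS8 and TPS11 differed by 0.04, within the bound of 0.34 for the difference of their means. TPS9 stood 0.67 above TPS11, more than 2 combined standard errors of at most 0.31. TPS9 and TPS6 were 0.55 apart with a bound of 0.31, TPS6 and TPS10 were 0.27 apart with a bound of 0.27, and neither gap exceeded 2 bounds. TPS10 and TPS7 were 0.50 apart with a bound of 0.14 and did exceed it. At 24 h no gap between neighbours from TPS11 to TPS7 exceeded 2 combined bounds, the widest being 0.60 between TPS8 and TPS6 with a bound of 0.34. These are differences of fold changes and say nothing of which gene has the higher transcript level.

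**Figure D2:**
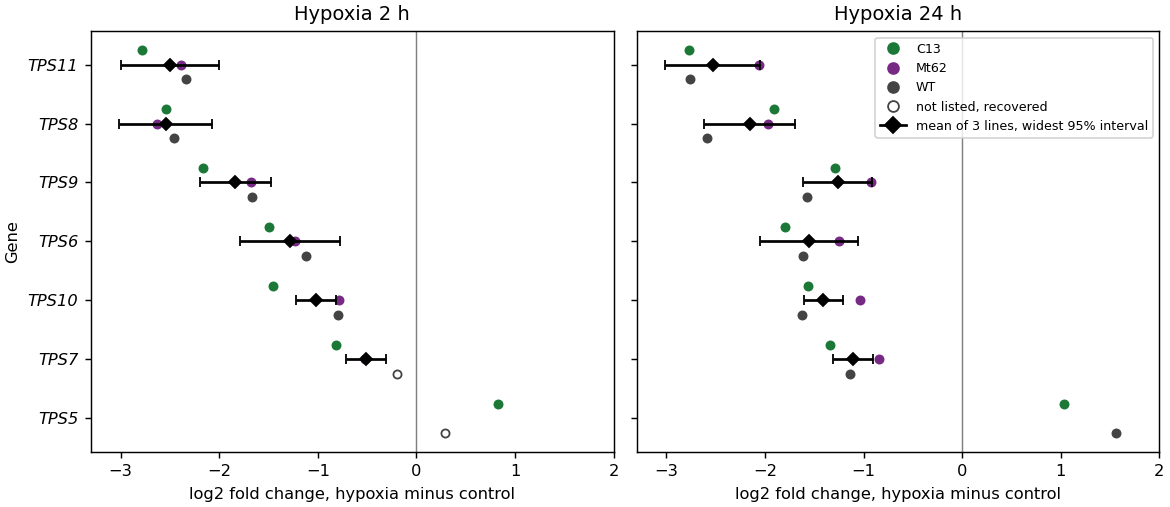
Log2 fold change of hypoxia minus the control of the same time (horizontal axis) for 7 genes (vertical axis) at 2 h (left) and 24 h (right). Dots are C13, Mt62 and WT, open dots are unlisted values recovered from other columns, and diamonds are means over the 3 lines with the widest 95% interval that the bound allows. At 2 h the diamonds spread from -2.54 for TPS8 to -0.51 for TPS7, and at 24 h from -2.53 for TPS11 to -1.11 for TPS7.

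With the 0 h control as comparison, which shares the treated plants with the comparisons above, the direction of every listed member under hypoxia was the same. TPS6 to TPS11 were lower and TPS5 was higher in C13, Mt62 and WT at both times, so that 6 genes fell and 1 rose in each of these 6 comparisons. Of all genes, 11.2%, 9.43% and 9.89% were lower and 10.9%, 9.15% and 9.1% higher in C13, Mt62 and WT at 2 h. At 24 h the shares were 18%, 16.1% and 17.9% lower and 19%, 15.4% and 19.2% higher. With this control TPS5 was listed in all lines at 2 h, with 0.84 in C13, 0.83 in Mt62 and 0.63 in WT (mean 0.76, standard error at most 0.15). The WT value did not pass the Benjamini-Hochberg adjustment over all rows (adjusted p 0.0770), nor did TPS6 at 2 h in Mt62 (0.0667) or WT (0.0770). At 24 h TPS5 had 1.15 in C13, 1.03 in Mt62 and 1.57 in WT (mean 1.25, at most 0.15), or 2.38-fold higher. TPS5 was thus the one gene of the family that was higher under low oxygen in every line by this control, and by the control of the same time it was listed in 1 line at 2 h and in 2 lines at 24 h.

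The untreated plants themselves changed with time for TPS10. Its control at 24 h exceeded the control at 0 h by 0.80 in C13 (standard error at most 0.17), 0.45 in Mt62 (at most 0.19) and 0.92 in WT (at most 0.17), values that were recovered as differences between deposited columns. With a t distribution on the bound and Benjamini-Hochberg adjustment over all 34558 rows, the adjusted p was 0.00209 in C13, 0.726 in Mt62 and 0.000159 in WT. The mean over lines was 0.72 (at most 0.10, adjusted p 2.99e-07), a 1.65-fold higher level in 24 h controls, and the mean was chosen after the data were seen. At this threshold 1.31% of all rows changed in C13, 1.23% in Mt62, 2.04% in WT and 2.29% in the mean, either way. The 24 h hypoxia value of TPS10 was smaller by the 0 h control, with -0.76 in C13, -0.59 in Mt62 and -0.70 in WT. Of 48 changes of the controls with time 41 could be recovered, and no other passed the threshold. Between 2 h and 0 h controls 1.38% of all rows passed in C13, 1.47% in Mt62 and 1.53% in WT. The mean for TPS8 was 0.05 between 24 h and 0 h controls, with a 95% interval no wider than -0.42 to 0.52.

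DETA gave a different and smaller picture than hypoxia at 2 h. TPS10 was listed as higher in Mt62 and WT and TPS7 rose in WT, both of which were lower in every line after 24 h of hypoxia, and TPS5 fell in Mt62 and WT. TPS1 was listed as lower in Mt62 by the same-time control and in all 3 lines by the 0 h control, and was listed in no other condition. TPS6, TPS8, TPS9 and TPS11, which fell so far under hypoxia, were not listed in any line after 2 h of DETA.

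TPS10 had 0.70 in Mt62 and 0.48 in WT, with a size below 0.44 in C13 as it was not listed there. The WT value did not pass the Benjamini-Hochberg adjustment over all rows (adjusted p 0.125). TPS5 had -1.11 in Mt62 and -1.13 in WT, 2.15-fold and 2.19-fold lower. TPS7 rose by 0.90 in WT alone, with a size below 0.45 in both transgenic lines. TPS1 had -0.72 in Mt62 against the control of the same time, which did not pass either (adjusted p 0.0960 by Benjamini-Hochberg). By the 0 h control TPS1 had -0.67 in C13, -1.12 in Mt62 and -0.71 in WT, a mean of -0.84 (standard error at most 0.16), or 1.78-fold lower. Taken singly, the adjusted p was 0.100 in C13 and 0.0922 in WT, which did not pass. The adjusted p, from the t distribution on the bound with Benjamini-Hochberg adjustment over all rows, was 2.19e-05 for this mean, a comparison in which 7.2% of all rows passed. In Mt62, the one line where it could be recovered, the TPS1 control at 2 h lay 0.40 below the control at 0 h (standard error at most 0.28), so the fall is smaller by that much against the control of the same time.

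The counts against the control of the same time were 0, 2 and 1 genes lower in C13, Mt62 and WT, where 3.84%, 5.69% and 5.92% of all genes were lower. Higher were 0, 1 and 2 genes, where 4.81%, 5.69% and 5.81% of all genes were higher. With 8 genes these counts are few, and in C13 no member was listed. Against the 0 h control 1, 1 and 2 genes were lower in C13, Mt62 and WT (of all genes 6.58%, 7.39% and 7.65%), and 0, 1 and 2 were higher (8.08%, 7.43% and 8.24%). There TPS10 rose by 0.59 in Mt62 and 0.60 in WT, TPS7 had 0.48 in WT, which did not pass (adjusted p 0.0922 by Benjamini-Hochberg), and TPS5 was lower at -0.79 in WT.

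After 24 h of DETA TPS10 was lower than the control of the same time in all 3 lines, and in Mt62 TPS8 and TPS11 were listed as lower too. TPS10 had -0.65 in C13, -1.04 in Mt62 and -1.25 in WT against the control of the same time, a mean of -0.98 (standard error at most 0.10), or 1.97-fold lower. It held place 155 among the 406 genes (1.65%) that were lower in all 3 lines. Part of this difference lay in the controls, which had risen by 24 h as given above. Against the 0 h control TPS10 was 0.16 in C13 and -0.33 in WT, both unlisted and recovered, and was listed in Mt62 at -0.59, and the mean of -0.25 did not pass (adjusted p 1 by the Benjamini-Hochberg adjustment over all rows).

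In Mt62 TPS8 had -1.02 and TPS11 -1.40 by the control of the same time, with adjusted p of 0.243 and 0.0703 by Benjamini-Hochberg over all rows, and TPS9 had an unlisted, recovered -0.42. Against the 0 h control of Mt62 TPS11 had -1.16, TPS9 -0.84 and TPS8 an unlisted -0.89. In C13 and WT none of these 3 genes was listed after 24 h of DETA. The members lower numbered 1 in C13, 3 in Mt62 and 1 in WT, where 3.89%, 3.32% and 5.79% of all genes were lower, and no member was higher, where 3.99%, 2.72% and 5.31% of all genes were. By the 0 h control 3 genes were lower in Mt62, where 1.59% of all genes were lower, and 0 in C13 and WT, where the shares were 1.53% and 1.42%. None of these 3 values of Mt62 passed the Benjamini-Hochberg adjustment over all rows (adjusted p 0.236 for TPS10, 0.442 for TPS9 and 0.442 for TPS11).

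**Figure D3:**
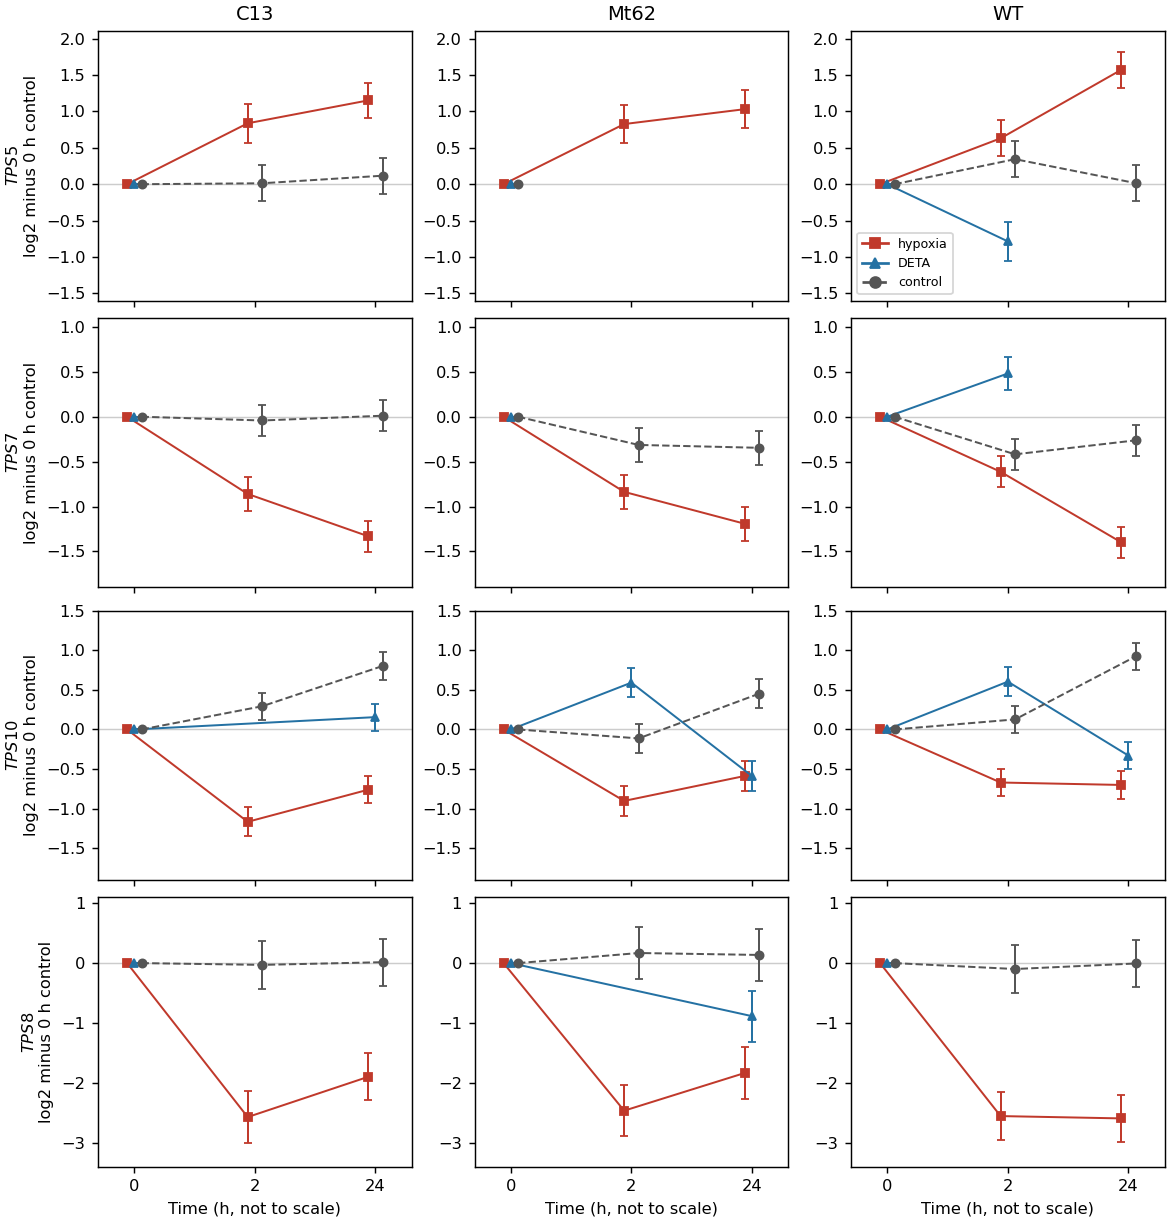
Transcript level of TPS5, TPS7, TPS10 and TPS8 relative to the same line's 0 h control (log2, vertical axis) at 0, 2 and 24 h (horizontal axis, not to scale) in C13, Mt62 and WT under hypoxia, DETA and no treatment. Bars are the upper bound of the standard error, a missing point could not be recovered from the listed values, and a line may pass over a missing 2 h point. TPS10 lies above 0 after 2 h of DETA in Mt62 and WT and below the untreated control after 24 h in every line.

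Set directly against each other at the same time, hypoxia and DETA differed for TPS10, TPS5 and TPS7. Here the control drops out of the difference. After 2 h TPS10 was lower under hypoxia than under DETA by 1.49 in Mt62 (standard error at most 0.17, adjusted p 1.15e-09 by Benjamini-Hochberg over all rows) and by 1.27 in WT (at most 0.19, adjusted p 9.83e-07). TPS7 was lower by 1.09 under hypoxia than under DETA in WT (at most 0.19, adjusted p 2.75e-05). TPS5 was higher by 1.42 under hypoxia than under DETA in WT (at most 0.26, adjusted p 0.000139). After 24 h TPS10 was lower by 0.92 under hypoxia than under DETA in C13 (at most 0.17, adjusted p 9.22e-05). The same difference was -0.37 in WT (at most 0.17, adjusted p 0.856) and 0.00 in Mt62, where both treatments had brought TPS10 to the same level. Of 48 such differences 10 could be recovered and these 5 passed, while 1.55%, 1.9% and 1.61% of all rows passed at 2 h in C13, Mt62 and WT, and 2.29%, 1.73% and 3.27% at 24 h. For each 2 h difference that passed, the listed values of the 2 treatments had opposite signs. As each lay at least 2.58 bounds from 0, passing followed from the listing and is no separate test of the treatments. For the genes with the largest fall under hypoxia the difference could be recovered in Mt62 at 24 h alone, where it was -0.95 for TPS8, -0.66 for TPS11 and -0.51 for TPS9, and none of these passed.

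The response also differed between 2 and 24 h for some members. TPS7 fell further with time under hypoxia. Its level at 24 h lay below that at 2 h of hypoxia by a log2 difference of -0.47 in C13, -0.36 in Mt62 and -0.78 in WT, a mean of -0.54 (standard error at most 0.10, adjusted p 0.000195 by Benjamini-Hochberg over all rows). Of the single lines WT alone passed for TPS7. TPS5 in WT went the other way, with 0.94 more at 24 h than at 2 h of hypoxia (at most 0.24, adjusted p 0.0143). Relative to the 0 h control TPS5 went from 0.84 at 2 h to 1.15 at 24 h in C13 and from 0.83 to 1.03 in Mt62. Neither of these changes passed. TPS10 was lower at 24 h than at 2 h of DETA by 1.18 in Mt62 (at most 0.17, adjusted p 3.53e-06) and by 0.93 in WT (at most 0.19, adjusted p 0.000783). For TPS8, TPS9, TPS6 and TPS11 the means under hypoxia at 24 h and 2 h differed by 0.42, 0.23, -0.19 and 0.31, and none passed. In these comparisons 2.51% of all rows passed for the mean under hypoxia, 2.65% for WT hypoxia, 0.848% for Mt62 DETA and 1.17% for WT DETA. For responses, each against the control of its own time, the change between 2 and 24 h passed in 1.59% of all rows for WT hypoxia, 0.582% for WT DETA, 0.301% for Mt62 DETA and 1.22% for the mean under hypoxia.

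Few members were listed as different between a haemoglobin line and WT. Of 80 values of a line against WT in the same condition, 6 were listed, and none of the 6 passed the Benjamini-Hochberg adjustment over all rows. In untreated plants at 0 h, no member was listed in C13 or in Mt62, where 1.74% and 0.477% of all genes were lower and 1.04% and 0.298% higher. No member was listed after 2 h of hypoxia in C13 (0.77% of all genes lower, 0.848% higher) or in Mt62 (0.571% lower, 0.656% higher). The same held after 24 h of hypoxia in C13 (1.47% lower and 1.47% higher) and after 2 h of DETA in Mt62 (0.668% lower, 0.652% higher).

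Mt62 plants had less TPS5 than WT after 24 h of hypoxia, at -0.82 (standard error at most 0.24, adjusted p 0.159 by Benjamini-Hochberg), where 2.31% of all genes were lower. C13 plants had less TPS7 than WT after 2 h of DETA, at -0.53 (at most 0.19, adjusted p 0.538), where 1.3% of all genes were lower. C13 plants had more TPS10 than WT after 24 h of DETA, at 0.68 (at most 0.17, adjusted p 0.0823), where 1.52% of all genes were higher. After 24 h of DETA, 3 of 8 members were lower in Mt62 than in WT, where 1.9% of all genes were. TPS11 had -1.22 (at most 0.42, adjusted p 0.325), TPS8 -1.02 (at most 0.40, adjusted p 0.403) and TPS9 -0.97 (at most 0.30, adjusted p 0.216), each by Benjamini-Hochberg over all rows. In the same comparison 9 of 14 starvation genes described below were lower in Mt62 than in WT.

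Whether a line responded differently from WT was tested as the difference between the responses. Of 64 such differences against the control of the same time, 30 could be recovered, and 0 passed the Benjamini-Hochberg adjustment over all rows. Over all rows the share that passed was 0%, 0.00289% or 0.00579%, depending on line and condition. Unadjusted p values under 0.05 were found for 4 of them, and p of at most 0.01 for 0. The largest of the 4 was TPS10 after 2 h of hypoxia, whose fall was greater in C13 than in WT by a log2 difference of -0.66 (95% interval no wider than -1.17 to -0.16).

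The other genes around trehalose 6-phosphate were counted in lists written with earlier results of these data known. The class I genes TPS2, TPS3 and TPS4 were measured and never listed under a treatment. TRE1, the trehalase, rose after 2 h of hypoxia with 1.31 in C13, 1.37 in Mt62 and 1.14 in WT, and after 2 h of DETA with 0.93 in C13, 1.02 in Mt62 and 0.90 in WT. It was not listed at 24 h against the control of the same time. Of 10 trehalose phosphate phosphatases 2 had a named probe. TPPA rose after 2 h of hypoxia with 0.67 in C13, 1.25 in Mt62 and 0.99 in WT, but was not listed there against the 0 h control. By the control of the same time TPPA also rose after 24 h of hypoxia, by 1.32 in Mt62 and 1.04 in WT. Under DETA it rose by that control by 0.95 in WT at 2 h, and by 0.77 in Mt62 and 1.03 in WT at 24 h. By the 0 h control TPPA was listed after 2 h of DETA in Mt62 alone, as lower, at -0.79. TPPB rose after 2 h of DETA with 0.41 in C13, 0.70 in Mt62 and 0.48 in WT, and fell after 24 h of hypoxia with -0.81 in C13, -0.69 in Mt62 and -0.57 in WT.

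Of the 6 SnRK1 subunits, AKINBETA1, a β subunit that helps place the kinase in the cell, was the only one listed in the same direction in all 3 lines. It fell after 2 h of hypoxia with -1.55 in C13, -1.03 in Mt62 and -0.88 in WT. After 24 h it had -1.46 in C13, -0.74 in Mt62 and -1.48 in WT. Under 2 h of DETA it rose by 0.83 in Mt62 and 0.56 in WT. KIN10, a catalytic subunit, had -0.37 in C13 and -0.40 in WT after 24 h of hypoxia and was not listed in Mt62. By the 0 h control KIN10 was not listed at 24 h in any line, and had -0.44 in Mt62 at 2 h. KIN11, another catalytic subunit, rose by 0.43 in WT after 2 h of hypoxia by the control of the same time. By the 0 h control KIN11 fell in Mt62, with -0.38 at 2 h and -0.43 at 24 h. Under DETA, by the control of the same time, KIN11 rose by 0.36 in C13 at 2 h and 0.51 in WT at 24 h.

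The bZIP factors of groups C and S1, some of which act downstream of SnRK1 on starvation genes, were split under hypoxia. Of 7 measured, 3 were lower and 3 higher in all lines at 2 h, and 2 lower and 3 higher at 24 h. Of all genes 6.1% were lower and 5.4% higher in all lines at 2 h, and 11% lower and 11.5% higher at 24 h. BZIP1 averaged -1.88 at 2 h and -2.08 at 24 h, and BZIP53 -1.24 at 2 h. BZIP63, a known phosphorylation target of SnRK1, averaged -0.98 at 2 h and -1.78 at 24 h of hypoxia, and rose on average by 1.16 after 2 h of DETA. These means are by the control of the same time. By the 0 h control BZIP63 averaged -1.72 at 2 h and -1.99 at 24 h of hypoxia, and was not listed after DETA in any line. BZIP44 averaged 0.96 at 2 h of hypoxia, and BZIP10 and BZIP25 averaged 1.20 and 0.85 at 24 h.

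The list of 14 genes that SnRK1 or starvation is known to induce went the way of TPS8 to TPS11 under hypoxia. At 2 h 13 of 14 were lower in C13, 9 in Mt62 and 9 in WT, where 10.4%, 10% and 9.92% of all genes were lower. At 24 h 13 were lower in each line, where 17.1%, 15.8% and 17% of all genes were, and none was higher at either time. BXL1, a xylosidase of the cell wall, averaged -2.80 at 2 h and -3.01 at 24 h of hypoxia, and SEN5 -2.53 and -2.51. DRM1 averaged -2.37 and DRM2 -2.31 at 2 h, and SEN1 -2.84 and ASN1, an asparagine synthetase, -2.80 at 24 h. These means are by the control of the same time. By the 0 h control neither DRM1 nor DRM2 was listed as lower under hypoxia in any line. In Mt62 DRM2 was higher by that control, with 1.37 at 2 h and 1.99 at 24 h, and DRM1 with 0.99 at 24 h. After 2 h of DETA 4 were higher in C13, 7 in Mt62 and 5 in WT, where 4.81%, 5.69% and 5.81% of all genes were higher, and none was lower. PRODH1, a proline dehydrogenase, averaged 2.27, BCAT2, a branched-chain aminotransferase, 2.00 and ASN1 1.93. After 24 h of DETA 3 were lower in C13, 6 in Mt62 and 2 in WT, where 3.89%, 3.32% and 5.79% of all genes were lower. There 1 was higher in C13 and 1 in WT, where 3.99% and 5.31% of all genes were higher. DRM2 averaged -2.34 and DRM1, a dormancy-associated gene, -1.62, while PRODH1 rose by 1.47 in C13 and 2.24 in WT. The control mattered here. By the 0 h control 0, 1 and 0 of the 14 were lower after 24 h of DETA in C13, Mt62 and WT. Of all genes 1.53%, 1.59% and 1.42% were lower there. By the same control 3, 0 and 4 were higher, where 1.52%, 1.83% and 1.36% of all genes were. After 2 h of DETA 9, 9 and 7 were higher in C13, Mt62 and WT by the 0 h control. Of all genes 8.08%, 7.43% and 8.24% were higher there. Under hypoxia 8, 9 and 9 were lower at 2 h by the 0 h control, with 1 higher in Mt62. Of all genes 11.2%, 9.43% and 9.89% were lower there, and 9.15% were higher in Mt62. At 24 h 8, 9 and 10 were lower by the 0 h control, with 2 higher in Mt62. Of all genes 18%, 16.1% and 17.9% were lower there, and 15.4% were higher in Mt62. The fall of such genes under hypoxia in these samples was known when the list was written, so the counts are no independent evidence of a direction.

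Sucrose and starch genes moved in both directions. By the control of the same time SPS1F, a sucrose phosphate synthase, averaged 1.28 after 24 h of hypoxia, -0.85 after 2 h of DETA and -0.69 after 24 h of DETA. By the 0 h control SPS1F averaged 1.84 after 24 h of hypoxia and was not listed after DETA in any line. SPS2F averaged 0.86 and SPS4F 0.88 after 24 h of hypoxia by the control of the same time. By the 0 h control SPS2F averaged 0.76 and SPS4F was not listed. GPT2, a glucose 6-phosphate carrier of the plastid envelope that is induced by sugar, averaged 4.36 at 2 h and 4.37 at 24 h of hypoxia. APL1, a large subunit of ADP-glucose pyrophosphorylase, averaged -1.29 at 24 h of hypoxia. The other large subunits, APL2, APL3 and APL4, were higher there in C13 and WT and not listed in Mt62. Of 6 measured starch genes, 1 was lower there in each line, and 4, 1 and 4 were higher in C13, Mt62 and WT. Of all genes, 17.1%, 15.8% and 17% were lower and 17.5%, 15.1% and 18.8% higher. APL2 averaged -0.79 at 24 h of DETA by the control of the same time and was not listed there by the 0 h control. After 2 h of DETA its direction turned with the control. It had 0.82 in C13 and 0.80 in Mt62 by the 0 h control, and -0.63 in Mt62 by the control of the same time.

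**Figure D4:**
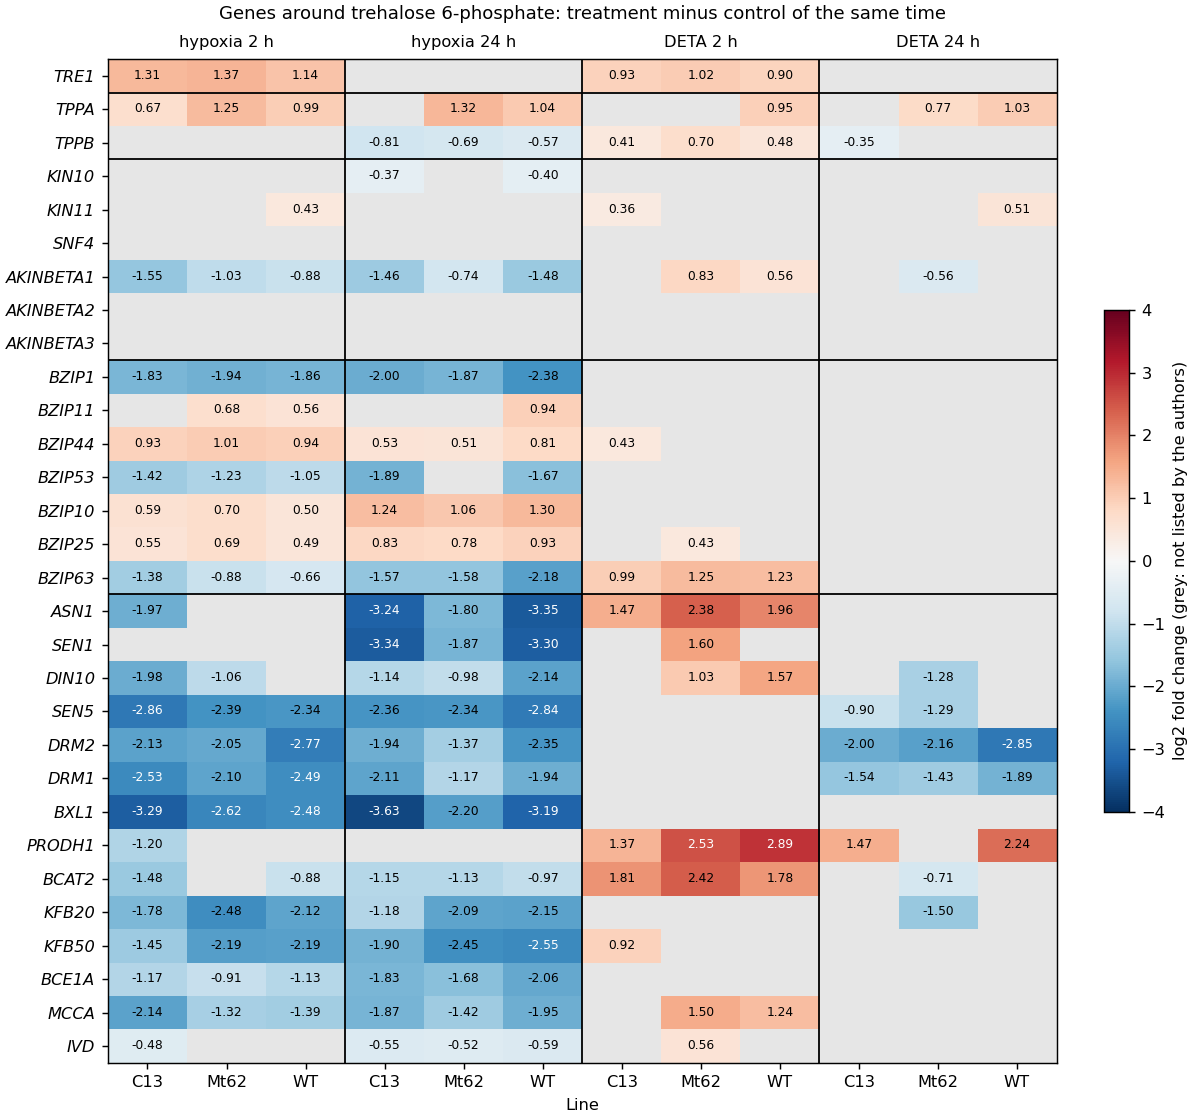
Log2 fold change of treated plants minus the line's control of the same time in C13, Mt62 and WT (horizontal axis) for, from top to bottom, trehalase, 2 trehalose phosphate phosphatases, SnRK1 subunits, bZIP factors and starvation genes (vertical axis); grey cells are not listed by the authors. Most starvation genes are blue under hypoxia at 24 h, where 13 of 14 fell in each line, and the bZIP factors show both colours.

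For 7 members, the genes with the most similar values were found by the root mean square difference over the columns listed in both genes. TPS11 was closest to TPS8, with 0.33 over 14 shared columns of its 15. TPS8 was closest to LBD37, a LOB-domain transcription factor, with 0.24 over 12 columns. TPS10 was closest to AKINBETA1, with 0.23 over 17 of its 21 columns, out of 145 genes that shared enough columns. TPS9 was closest to ACX2, a peroxisomal acyl-CoA oxidase, with 0.21 over 12 columns, and TPS7 to YUC2, an enzyme of auxin synthesis, with 0.17 over 12 columns. TPS6 was closest to PIRL4, a leucine-rich repeat protein, with 0.11 over 12 columns, and TPS5 to AT1G16750, with 0.32 over 11. The shared columns hold mostly hypoxia comparisons with common control plants, so these distances only describe how near the listed values are.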

How the data were processed

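The authors' deposited values are log fold changes between 2 groups, taken here as log2; no label or header names the base. Per the series' design text, three-dye arrays were quantile normalized and batch corrected with a modified ComBat, and values with p above 0.01 in an empirical Bayes test were set to null. That text mentions an average over the probes of a gene, but several genes have more than 1 of the 34558 rows.

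Rows were named through gene accessions and symbols of TAIR10.1. Closed loops of columns agreed within 2e-09, which allowed unlisted differences to be computed from listed ones (10550 in all, 11 among the members). Listed values exceeded recovered unlisted ones in 98.6% of the 4473 rows with both, after scaling by channel numbers, so a row's smallest listed value divided by 2.58 bounds its standard error from above. P-values came from a t distribution (60 degrees of freedom) on this bound and were Benjamini-Hochberg adjusted at 0.05 over all rows. Rows that could not be recovered were given a p-value of 1. Every listed value is at least 2.58 bounds from 0, so under hypoxia, where many rows are listed, passing the adjustment is partly by construction. The same holds for a mean over 3 listed values of the same sign and for a difference between listed values of opposite sign. The members, the gene lists, the tests and the rule for named genes were chosen with earlier results of these data known. All 8 members were named throughout. Of each list, genes listed the same way in all 3 lines were named, up to 4 per comparison, and for members listed in 10 or more columns the nearest gene. KIN10, KIN11 and partial listings were added after their values were seen. Python 3.11.15, pandas 2.3.3 and scipy 1.17.1 were used.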

Additional observations from a re-analysis of the deposited data

Results flagged for a closer look

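The response to a treatment differed between 2 and 24 h for 3 members, by a test of the difference between the responses (each against the control of its own time, with Benjamini-Hochberg adjustment over all rows). Of 48 such differences 22 could be recovered and 4 passed, while 0.301% of all rows passed for Mt62 DETA, 0.582% for WT DETA and 1.59% for WT hypoxia. Under DETA the TPS10 response at 24 h minus that at 2 h was -1.74 in Mt62 (standard error at most 0.24, adjusted p 4.43e-06) and -1.73 in WT (at most 0.25, adjusted p 9.1e-06). In both lines the listed TPS10 responses at 2 h and 24 h have opposite signs, so passing is partly by construction. The DETA value of TPS10 at 2 h is not listed in C13, so the difference could not be recovered there. Under hypoxia in WT the TPS5 response at 24 h minus that at 2 h was 1.27 (at most 0.35, adjusted p 0.0351), and for TPS7 it was -0.94 (at most 0.24, adjusted p 0.022). For TPS5 the same difference was 0.21 in C13 and did not pass. For TPS7 it was -0.52 in C13 and -0.32 in Mt62, neither of which passed, and the mean over the 3 lines was -0.60 (at most 0.14, adjusted p 0.0112). The change of the TPS10 controls between 2 and 24 h, 0.56 in Mt62 and 0.79 in WT, enters these differences. Without it the DETA levels at 24 h and 2 h differed by -1.18 in Mt62 and -0.93 in WT.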

How the results depend on the processing

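Counts are summed over C13, Mt62 and WT. Requiring a size of at least 1, members higher were 0 after 2 h of hypoxia (listing 1) and 0 after 2 h of DETA (listing 3), and line values against WT were 2 lower and 0 higher, where the listing has 5 and 1. With adjusted p from the bound, those line values were 0 and 0, and members lower after 24 h of DETA were 3, where the listing has 5. With the 0 h control, members higher after 2 h of hypoxia were 3, members lower after 24 h of DETA were 3, and TPS10 in C13 after 24 h of DETA turned positive, at 0.16, unlisted; the change of that control with time, 0.80, is this difference. Of the 17 values lower after 2 h and 18 after 24 h of hypoxia, 16 and 18 passed the adjustment; the other was TPS6 in WT at 2 h (adjusted p 0.0804). Through DETA columns 7 control changes could be recovered, where hypoxia columns gave 38. With columns against the same-time control alone, 3 differences between hypoxia and DETA passed, where all columns gave 5. With the mean over the 3 lines, chosen after the data were seen, 1 control change (each line by itself 2) and 1 change of response with time (each line by itself 4) passed. Other channel numbers for C13 hypoxia 2 h and Mt62 hypoxia 24 h did not change the counts of control changes, of differences between hypoxia and DETA or of differences in response between a line and WT, for which they were run. No paired analysis was possible because the table holds no value per replicate, and for the same reason no replicate could be left out. Signal over background is not in the table, so a member that is not listed may be weakly expressed.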
